A study of Homo sapiens with 2 samples.

Results

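The accessible chromatin of 10 genes of the NF-kB response of airway epithelium was examined in untreated B2B cells. The genes were the cytokines and chemokines IL6, CXCL8, CXCL1, CXCL2, IL1A, IL1B and CCL2, the NF-kB subunit gene NFKB1 and the feedback genes NFKBIA and TNFAIP3. They were taken by name, as 10 of 20007 protein-coding genes of GENCODE 44, and every peak from 50 kb upstream to 50 kb downstream of each gene was read. CXCL8, CXCL1 and CXCL2 on chromosome 4 were read as 1 span and IL1A and IL1B on chromosome 2 as another, which gave 7 loci. These loci held 28 peaks of replicate 1 and 36 of replicate 2, and overlapping peaks were merged into 36 regions out of 37661 in the genome.

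B2B stands for BEAS-2B, human bronchial epithelial cells that were immortalized and are not cancerous, here of WT genotype and not stimulated. Open DNA was tagged with adapters by the Tn5 transposase (ATAC-seq) in 2 biological replicates of this 1 line. There was no second condition, so the values below describe the untreated line and no test between groups was possible. The activity of NF-kB in these cells was not measured. The deposited fold enrichment of a peak is the pileup of reads or fragments over the summit divided by the local background, with 1 added to both. The 2 lists held 28735 and 36162 peaks on chromosomes 1 to 22, X and Y, with a median pileup at the summit of 35 in replicate 1 and 30 in replicate 2 and a genome-wide background of 4.77 and 3.41. The weakest summit had a pileup of 16 in replicate 1 and 13 in replicate 2, so a site with no peak was not called at this depth, which does not make it closed. Marker genes were read for the label of the cells, where promoters span 1 kb before and after the transcription start site (TSS). A promoter peak in both lists was found for 52.3% of all protein-coding genes. Of 12 epithelial markers 1 had a promoter peak in both lists (KRT18) and 1 in a single replicate (KRT8), whereas 10, CDH1, EPCAM and KRT5 among them, had none. Of 12 mesenchymal markers 8 had one in both, of 12 blood cell markers 1 (CD14) and of 6 endothelial markers 1 (KDR). These lists differ in CpG dinucleotides within 500 bp of the TSS. Their median counts were 41 (epithelial), 52 (mesenchymal), 13.5 (blood) and 20.5 (endothelial), compared with 66 over all promoters. Promoters poor in CpG seldom had a peak, as given below, so few peaks in the blood and endothelial lists say little about the cells. The epithelial list was mixed. EPCAM, KRT19 and CDH1 held 101, 79 and 76 CpG and had no peak. In their groups by CpG count, 71.85% to 74.3% of genes had one in both replicates. The other epithelial markers with no peak held 14 to 48. The median share over the CpG groups of the genes was 21.0% for the epithelial and 56.1% for the mesenchymal list. Peak lists do not measure expression, and the part of this marker pattern in the results below was not tested.

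NF-kB is a dimeric transcription factor that is held in the cytoplasm of resting cells by inhibitor proteins such as IkB-alpha, the product of NFKBIA. Signals from TNF, IL-1 or Toll-like receptors activate the IKK complex, which marks the inhibitor for destruction, and the freed dimer enters the nucleus and binds kB sites. In airway epithelium its targets include neutrophil and monocyte attractants and the fever cytokine IL6, often together with AP-1 and C/EBP, and also NFKBIA and TNFAIP3, whose products shut the response off again.

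A strict 10-letter NF-kB consensus was searched on both strands from 250 bp before to 50 bp after the TSS of each gene, and was found in 6 of the 10 promoters, compared with 6.56% of all protein-coding promoters. These genes were listed because they are known NF-kB targets, so that share describes the list. The stretches with the sites are printed on the strand of the gene from hg38, with every NF-kB match in capitals.
IL6, chr7:22727080-22727146, plus strand: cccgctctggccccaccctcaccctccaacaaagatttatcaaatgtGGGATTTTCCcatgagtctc
CXCL1, chr4:73869293-73869362, plus strand: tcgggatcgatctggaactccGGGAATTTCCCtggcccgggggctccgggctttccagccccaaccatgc
CXCL2, chr4:74099226-74099295, minus strand: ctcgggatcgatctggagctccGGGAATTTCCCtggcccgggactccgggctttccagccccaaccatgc
NFKB1, chr4:102501259-102501328, plus strand: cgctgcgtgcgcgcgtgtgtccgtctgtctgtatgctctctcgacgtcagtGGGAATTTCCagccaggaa
NFKBIA, chr14:35404780-35404849, minus strand: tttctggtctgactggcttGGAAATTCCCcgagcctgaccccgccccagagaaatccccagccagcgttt
TNFAIP3, chr6:137867144-137867213, plus strand: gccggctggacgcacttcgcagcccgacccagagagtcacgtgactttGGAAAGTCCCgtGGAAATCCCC

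All 6 genes had the match within the stretch from 100 to 31 bp before the TSS, a placement that was noticed in these sequences and then counted. Of all 1312 promoters with the motif, 24.2% had a match wholly inside that stretch. CXCL1, CXCL2, NFKB1 and NFKBIA shared 1 spelling, GGGAATTTCC, on either strand, which 27 promoters in the genome held, or 0.135%. This spelling was taken from CXCL1 itself, and the CXCL1 and CXCL2 promoters are alike, as given below, so the count describes these sequences only. In CXCL1 and CXCL2 a further C follows, so the same site also matched on the opposite strand, shifted by 1 base. TNFAIP3 was the gene with a pair of separate sites, from 67 to 58 bp and from 55 to 46 bp before the TSS. The site of IL6 lay from 73 to 64 bp before the TSS.

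CXCL8 and CCL2 had no match of the strict consensus in this window, nor did IL1A or IL1B. The 9-letter core GGAATTTCC, chosen after the sequences had been seen, was present in CXCL8 from 91 to 83 bp before the TSS, and in CXCL1, CXCL2, NFKB1 and NFKBIA. It was found in 5 of the 10 genes and in 76 promoters of the genome, or 0.380%. The core is part of GGGAATTTCC, so every gene with that spelling holds it, and CXCL8 was the only gene that it added. The CXCL8 promoter is known for adjoining sites of AP-1, C/EBP and NF-kB, and its stretch is printed to show the AP-1 letters (TGACTCA or TGAGTCA) and the core, both in capitals.
CXCL8, chr4:73740419-73740497, plus strand: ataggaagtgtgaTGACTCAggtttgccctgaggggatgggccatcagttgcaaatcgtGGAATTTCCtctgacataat

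The AP-1 letters stood in 2 of the 10 promoters, CXCL8 and IL1A, compared with 3.57% of all promoters. IL1A had a match on each side of its TSS. The C/EBP letters (TTGCNNAA) stood in 3, IL6, CXCL2 and IL1B, compared with 8.11%. No match of one motif overlapped a match of another in these promoters.

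**Figure D1:**
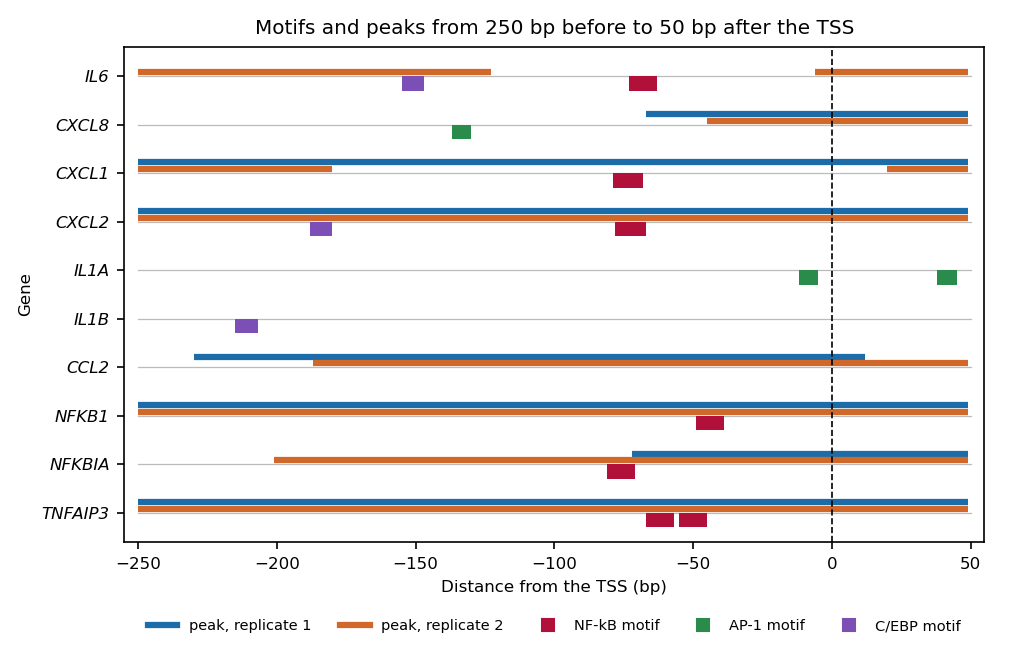
Each row is 1 of the 10 genes, and the axis gives the distance from the TSS in bp. Bars above the line are the parts covered by peaks of replicate 1 (blue) and replicate 2 (orange), and boxes below it are NF-kB, AP-1 and C/EBP matches. The NF-kB matches of CXCL2, NFKB1 and TNFAIP3 lie under peaks of both replicates, the match of CXCL1 under a peak of replicate 1 and that of NFKBIA under a peak of replicate 2, and the match of IL6 lies in a gap between peaks.

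The sites did not all lie in called open chromatin. The NF-kB matches of CXCL2, NFKB1 and TNFAIP3 lay inside a peak in both replicates. The match of CXCL1 lay inside the peak of replicate 1, which ran from 274 bp before to 51 bp after the TSS, but in replicate 2 it fell between a peak that ended 180 bp before the TSS and one that began 20 bp after it. The match of NFKBIA lay inside a peak in replicate 2 and overlapped the edge of the peak of replicate 1. The match of IL6 was 143 bp from the nearest peak in replicate 1 and 50 bp in replicate 2. Thus the kB match lay inside a peak in both replicates in 3 of the 6 genes, and in neither in 1. The printed sites of CXCL8 also lay outside its peaks, which began 67 and 45 bp before the TSS. Its AP-1 match was 64 bp from the nearest peak in replicate 1 and 86 bp in replicate 2. The core of CXCL8, from 91 to 83 bp before the TSS, lay upstream of both peaks. Over the genome, promoter peaks were as common with the motif as without it, at 52.3% of the 1312 promoters that had it and 52.3% of the others.

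Peaks within 1 kb of the TSS were found in both replicates for 8 of the 10 genes, compared with 52.3% of all protein-coding genes. These were 5 of the 7 cytokine and chemokine genes and all 3 regulators. IL1A and IL1B had no promoter peak in either replicate.

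TNFAIP3, which encodes the ubiquitin-editing enzyme A20 that ends NF-kB signalling, had the highest promoter fold enrichment of the 10 genes, 12.9 in replicate 1 and 14.5 in replicate 2 (13.7 ± 1.14, SD, n = 2), with a pileup of 94 and 89. In its own list this peak was above 82.4% of the protein-coding promoters with a peak in replicate 1 and above 85.3% in replicate 2. The region was 1170 bp wide, the summits lay 129 and 157 bp before the TSS, and both kB sites were inside it. Its summit also lay within the annotated lncRNA WAKMAR2. ATAC-seq has no strand, so this peak cannot be given to TNFAIP3 alone. NFKBIA followed with 10.05 and 12.3 (11.2 ± 1.57, SD, n = 2). Its highest summits lay 812 and 599 bp after the TSS, the shared region having its summit in intron 1 of the gene, and a second region with its summit 127 bp after the TSS, in the coding part of exon 1, reached 9.36 and 8.66. These inhibitor genes were the only 2 of the 10 whose promoter peak exceeded the median over all protein-coding promoters with a peak, 7.97 in replicate 1 and 9.06 in replicate 2, in both lists.

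NFKB1, which encodes the p105 precursor of the p50 subunit, had 7.04 and 7.31 (7.17 ± 0.19, SD, n = 2) in a region from 577 bp before to 777 bp after the TSS in replicate 1. CXCL2, a neutrophil attractant, had 8.14 and 7.02 (7.58 ± 0.79, SD, n = 2), and its summit lay 243 bp before the TSS in replicate 1 and 26 bp before it in replicate 2 within 1 shared region. The summit of replicate 1 also lay within the annotated ENSG00000289241, so this peak cannot be given to CXCL2 alone. The ranges of CXCL2 and NFKB1 overlapped, so their order was not resolved by 2 replicates.

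IL6, the cytokine of the acute-phase response, had 6.93 and 6.98 (6.95 ± 0.035, SD, n = 2), but this agreement joins different peaks. In replicate 1 the highest peak had its summit 596 bp before the TSS, and in replicate 2 it had its summit 138 bp after it. Taken region by region, the upstream peak measured 6.93 in replicate 1 and 5.60 in replicate 2, and the downstream one 4.85 and 6.98, so the replicates ordered them in opposite ways. The downstream summit lay in intron 1. Another peak, with its summit 237 bp before the TSS, was called in replicate 2 only, at 5.53. These letters of that peak show an AP-1 match and a C/EBP match in capitals. The IL6 promoter is known for sites of both factors.
IL6, 237 bp upstream, chr7:22726903-22727063, plus strand: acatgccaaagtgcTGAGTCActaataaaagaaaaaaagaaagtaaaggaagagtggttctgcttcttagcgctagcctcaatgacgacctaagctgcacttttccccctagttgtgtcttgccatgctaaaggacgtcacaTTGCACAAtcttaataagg

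The AP-1 match lay from 283 to 277 bp and the C/EBP match from 155 to 148 bp before the TSS. The IL6 promoter also lies within the annotated STEAP1B and IL6-AS1, and ATAC-seq has no strand, so its peaks cannot be given to 1 of these genes.

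CCL2, which attracts monocytes, had 5.37 and 5.72 (5.54 ± 0.24, SD, n = 2), again with the highest summit at different places, 513 bp before the TSS in replicate 1 and 64 bp before it in replicate 2. By region, the summit about 515 bp upstream measured 5.37 and 5.62, and the one next to the TSS 4.16 and 5.72. CXCL8, the main neutrophil attractant IL-8, had 5.37 and 4.98 (5.18 ± 0.27, SD, n = 2) in a single region of 201 bp that covered the TSS, with pileups of 30 and 21. The ranges of CCL2 and CXCL8 overlapped. CXCL1, a further neutrophil attractant, had the lowest values of the 8, 4.85 and 4.30 (4.58 ± 0.39, SD, n = 2), with pileups of 27 and 18 against smallest pileups of 16 and 13 in the lists. Its highest summit also lay at different places, 36 bp before the TSS in replicate 1 and 80 bp after it in replicate 2. With equal numbers of the strongest peaks from each list, CXCL8 and CXCL1 kept a promoter peak in 1 replicate only and the count fell from 8 to 6.

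**Figure D2:**
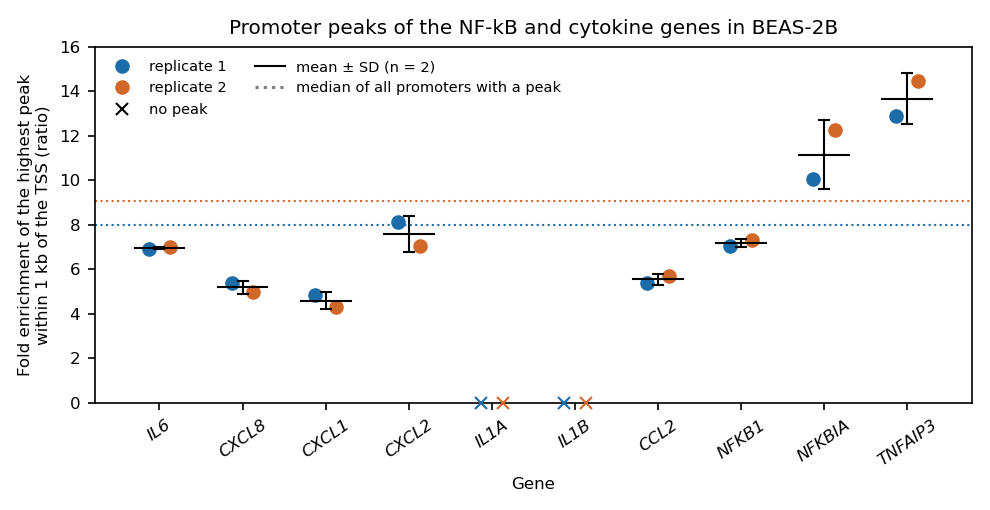
Fold enrichment, a ratio, of the highest peak within 1 kb of the TSS for each gene, with replicate 1 in blue and replicate 2 in orange, black lines for the mean and SD of both, and crosses at 0 for genes with no peak. Dotted lines are the median over all protein-coding promoters with a peak, 7.97 in replicate 1 and 9.06 in replicate 2. TNFAIP3 and NFKBIA lie above both lines, CXCL2 is above its line in replicate 1 only, and IL1A and IL1B have no value.

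All 7 cytokine and chemokine promoters held fewer CpG dinucleotides than the 3 regulators. Within 500 bp of the TSS, IL1B held 7 CpG, CXCL8 9, IL1A 13, CCL2 17 and IL6 30, compared with a median of 66 over all promoters, whereas NFKBIA held 91, TNFAIP3 94 and NFKB1 124. CXCL1 and CXCL2 held 64 and 75. Genes were put into 10 groups of equal size by this count. In the group of CXCL8 and IL1B only 2.10% of the genes had such a peak in both lists, and in the group of CCL2 and IL1A 6.50%. CXCL8 and CCL2 were thus among the few CpG-poor genes with an open promoter, while IL1A and IL1B shared their groups' usual state. In the group of IL6 the share was 21.0%. In the groups of CXCL1, CXCL2, NFKB1 and both NFKBIA and TNFAIP3 the shares were 68.2%, 73.6%, 72.6% and 76.4%, so a promoter peak was the common state there.

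**Figure D3:**
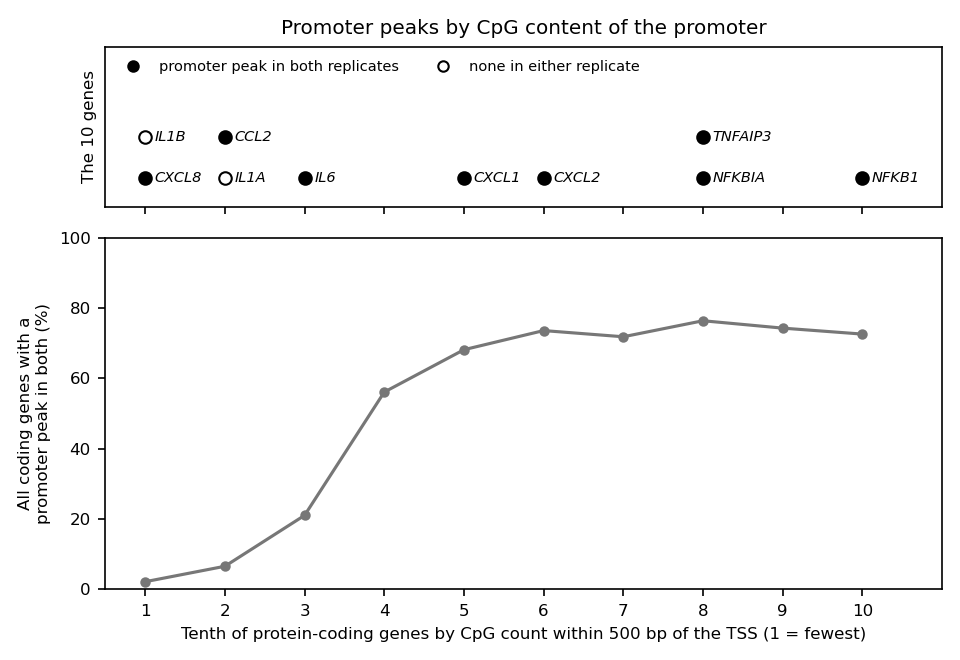
The lower panel gives the percent of all protein-coding genes with a promoter peak in both replicates, in 10 groups of equal size by the CpG count within 500 bp of the TSS. The upper panel places the 10 genes in their groups, filled where a promoter peak was found in both replicates and open where none was found. CXCL8 and CCL2 are filled in groups where 2.10% and 6.50% of genes have a peak.

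Over the 7 loci 27 of the 36 regions held peaks of both replicates, or 75%, compared with 67.4% of all regions. A single region was called in replicate 1 only and 8 in replicate 2 only. Of the 27 shared regions 14 lay within 1 kb of a protein-coding TSS and 13 were distal, 10 of them intergenic, 2 in introns and 1 in an exon. The windows of the 10 genes held a median of 3 shared regions, compared with 2 over windows built the same way around all protein-coding genes (quartiles 1 and 4). IL6 and CXCL8 had 4 each, CXCL2, IL1A, CCL2, NFKB1 and NFKBIA had 3, CXCL1 had 2, TNFAIP3 had 1 and IL1B had none.

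**Figure D4:**
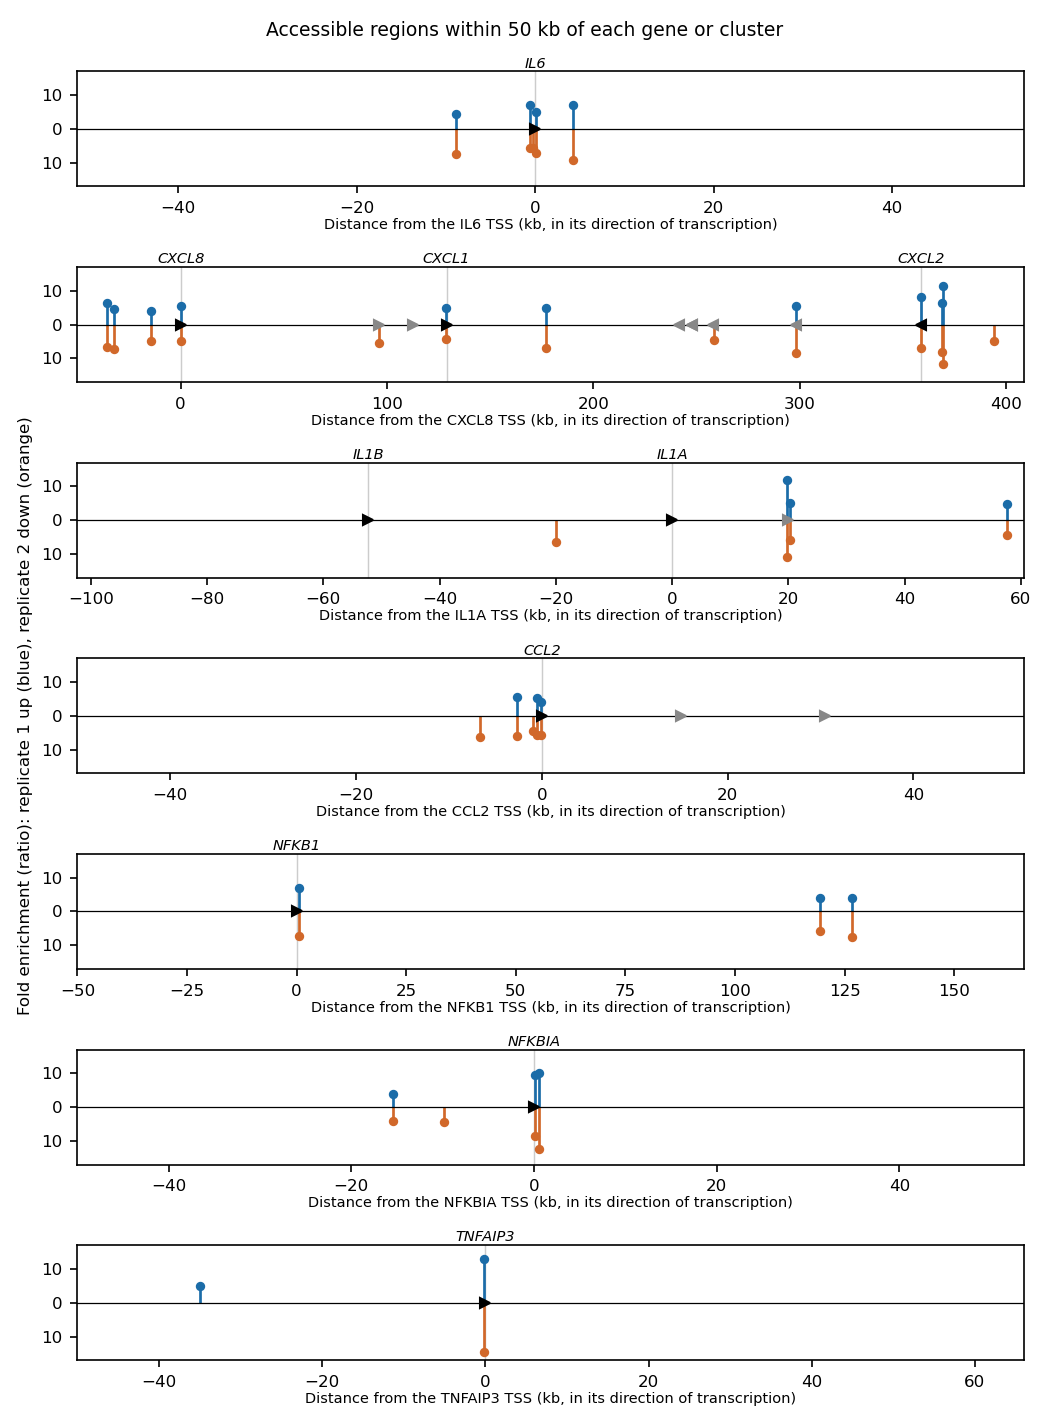
Each panel is 1 locus, with the distance in kb from the TSS of its first gene, in that gene's direction of transcription. Stems give the fold enrichment, a ratio, of each region, upward in blue for replicate 1 and downward in orange for replicate 2, and arrowheads mark the TSS and direction of the 10 genes (black, named) and of other coding genes (grey). Peaks crowd around IL6, CCL2 and the ends of the chemokine span, NFKB1 has none in its body beyond the promoter region, and the single stem between IL1B and IL1A is from replicate 2.

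The chemokine span of 459 kb held 13 regions, 10 of them shared, and the distal ones lay at its 2 ends and near its middle. The strongest was 10.5 kb upstream of CXCL2, between CXCL2 and MTHFD2L, with a fold enrichment of 11.4 and 11.5 and a pileup of 65 in both replicates, above the promoter of every chemokine gene in the span. Its central 121 bases are printed because it was the strongest distal region of the 7 loci and none of the 3 motifs occurred within 100 bp of its summit.
CXCL2, 10.5 kb upstream, chr4:74109625-74109745, plus strand: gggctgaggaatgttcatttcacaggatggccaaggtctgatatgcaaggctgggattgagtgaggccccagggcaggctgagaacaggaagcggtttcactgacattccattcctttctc

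A weaker region stood 10.04 kb upstream of CXCL2, at 6.24 and 8.14, and held 2 AP-1 matches and a C/EBP match. At the other end of the span a region stood 35.9 kb upstream of CXCL8, at 6.24 and 6.57. It held matches of the same motifs in the same order, with the C/EBP match differing in its letters. Their sequences were alike. In the best local alignment of 300 bp to either side of the summits, 459 of 548 aligned bases were identical, or 83.8%, with a longest exact run of 33 bp. The pair is printed with the matches in capitals, each from 60 bp before to 60 bp after the summit.
CXCL8, 35.9 kb upstream, chr4:73704644-73704764, plus strand: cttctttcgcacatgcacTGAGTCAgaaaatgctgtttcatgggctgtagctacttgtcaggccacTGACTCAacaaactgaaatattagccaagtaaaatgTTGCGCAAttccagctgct
CXCL2, 10.04 kb upstream, chr4:74109179-74109299, plus strand: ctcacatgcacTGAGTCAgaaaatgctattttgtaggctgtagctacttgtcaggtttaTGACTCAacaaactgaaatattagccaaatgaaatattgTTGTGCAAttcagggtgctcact

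All 78 pairs of the 13 regions of the span were aligned, and 5 pairs had 200 or more aligned bases. This was the only distal pair among them, and the other 4 were pairs of chemokine promoters. The regions 10.04 and 10.5 kb upstream of CXCL2 are neighbours whose windows overlap, so their likeness was not counted. CXCL1 and CXCL3, a chemokine of the same kind, were identical at 87.0% of 292 aligned bases of their promoters (250 bp before to 50 bp after the TSS), CXCL2 and CXCL3 at 82.7% of 283, and CXCL1 and CXCL2 at 76.0% of 292, with longest exact runs of 25, 37 and 42 bp. CXCL8 was identical to each of the other 5 chemokine promoters compared at 47.2% to 51.6% of the aligned bases. Whether reads that map to several places were kept is not given in the sources used here, so the peaks of such similar copies are uncertain.

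Of the other chemokine genes of the span, CXCL3 had a promoter peak in both replicates, at 5.54 and 8.38, and its region held the GGGAATTTCC site. CXCL5 and CXCL6 had one in replicate 2 only, at 4.53 and 5.44. PF4V1, PF4 and PPBP, genes known from platelets, had none, nor had the uncharacterized ENSG00000288796. The distal regions 32.5 and 14.3 kb upstream of CXCL8 measured 4.50 and 7.25 for the first and 3.98 and 4.76 for the second. A region 48.0 kb downstream of CXCL1 measured 5.02 and 7.02. Each of these 3 held an AP-1 match.

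Of the 13 shared distal regions, 5 held AP-1 letters within 100 bp of the summit, or 38.5%, compared with 32.5% of all shared distal regions, a share near the background. All 5 lay in the chemokine span, which held 6 of the 13. NF-kB letters occurred in 1 of the 13, compared with 3.29%, and C/EBP letters in 3, compared with 9.61%. Among the 14 shared promoter regions NF-kB letters lay within 100 bp of the summit in 3 (CXCL1, CXCL3 and TNFAIP3), compared with 4.21% of all 10299 shared promoter regions. C/EBP letters lay there in 2 (CXCL2 and NFKBIA), compared with 3.22%, and AP-1 letters in 0, compared with 2.79%. These counts used the summit of the replicate with the higher fold enrichment. For CXCL2 that summit lay 243 bp before the TSS, so its kB site from 78 to 69 bp before it was not counted. In replicate 2 the summit lay 26 bp before the TSS. CXCL1 and CXCL3 are similar copies, so their sites are not independent.

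The distal NF-kB match belonged to CCL2. A region 2.7 kb upstream of its TSS measured 5.65 and 5.88 (5.77 ± 0.17, SD, n = 2), above both CCL2 promoter regions, and held GGGAATTTCC from 2610 to 2601 bp before the TSS. The upstream stretch of CCL2 is known as an NF-kB enhancer. The sequence from 60 bp before to 60 bp after the summit is printed with the match in capitals.
CCL2, 2.7 kb upstream, chr17:34252566-34252686, plus strand: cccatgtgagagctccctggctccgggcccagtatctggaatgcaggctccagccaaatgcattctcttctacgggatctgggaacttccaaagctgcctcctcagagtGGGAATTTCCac

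This spelling is the one found in the promoters of CXCL1, CXCL2, NFKB1 and NFKBIA. The match began 49 bp from the summit, so it was not counted within 50 bp of it, and the region was not shared when each peak had to overlap by 50%. A region 6.6 kb upstream of CCL2 was called in replicate 2 only, at 6.12. The downstream neighbours CCL7 and CCL11 had no promoter peak in either replicate, and no peak lay in the 50 kb after CCL2.

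The IL6 locus held a region in the last exon of the gene, exon 5, 4.3 kb after the TSS, with its summit in the coding part. It measured 6.93 and 9.09 (8.01 ± 1.53, SD, n = 2), more than either shared promoter region of IL6 in mean, and its summits were 1 bp apart. A region 8.9 kb upstream, in an intron of STEAP1B, measured 4.50 and 7.48. No other peak lay in the IL6 window.

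IL1A and IL1B encode the IL-1 cytokines, of which IL1A is also known as an alarmin of epithelial cells. Their TSS lie at chr2:112784493 and chr2:112836779, both on the minus strand. The nearest peak to the TSS of IL1A was 19.5 kb away in both lists, at the promoter of the neighbour CKAP2L, which reached 11.8 and 10.9. The nearest peak to the TSS of IL1B was 71.8 kb away in replicate 1 and 32.3 kb in replicate 2, and no shared region lay in its window. The 3 shared regions of the IL1 span were 2 at CKAP2L and 1 in an intron of NT5DC4, 57.6 kb downstream of the IL1A TSS, at 4.85 and 4.30. A region between IL1A and IL1B, 19.9 kb upstream of IL1A, was called in replicate 2 only, at 6.57 with a pileup of 28.

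NFKB1 had no peak in its body beyond the promoter region, and the longest stretch without a peak in its locus was 119 kb. Beyond its 3′ end 2 shared regions lay 119.4 and 126.6 kb after the TSS, both at 3.98 in replicate 1, and at 5.66 and 7.48 in replicate 2. NFKBIA had a shared region 15.4 kb upstream, at 3.81 and 4.08 the weakest in mean of the 27, and a region 9.9 kb upstream in replicate 2 only, at 4.53. TNFAIP3 had no shared region other than its promoter. A region 34.9 kb upstream of it, in the lncRNA WAKMAR2 and with an AP-1 match, was called in replicate 1 only, at 5.02, the single region of the 7 loci of that kind.

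The fold enrichment was higher in replicate 2 than in replicate 1 for 12 of the 13 shared distal regions of the loci, or 92.3%, compared with 77.5% of all shared distal regions, and for 8 of the 14 shared promoter regions, or 57.1%, compared with 70.5%. The median over the distal regions was 4.85 in replicate 1 and 7.02 in replicate 2, compared with 6.06 and 7.48 over all shared distal regions. Over the promoter regions it was 6.24 and 7.001, compared with 7.45 and 8.92. The genome-wide background of the 2 lists was 4.77 and 3.41, and its part in these differences was not tested.

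The wider pathway was read from lists of genes, each with the number of promoters with a peak in both replicates, to be set against the 52.3% of all protein-coding genes. Of 11 NF-kB subunit and inhibitor genes 10 had one, the exception being NFKBID, and of 15 genes of the IKK complex and its upstream signalling 14 had one, the exception being MYD88, the adaptor of Toll-like and IL-1 receptors. Of 15 genes of negative feedback 12 had one, TNIP2 had one in a single replicate, and TNIP3 and TRAF1 had none. The machinery of the pathway was thus mostly open, as were most CpG-rich promoters; the median CpG counts of these lists were 93, 87 and 93.

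Receptors were divided, with 7 of 13, or 53.8%, a share near that of all genes. Among the 7 were receptor genes for IL-6 and IL-1, with IL1RAP at 18.2 and 18.5, IL1R1 at 8.66 and 12.7, IL6R at 7.80 and 9.97 and IL6ST at 12.1 and 10.9. TLR2, TLR3 and TLR4 had peaks between 4.08 and 6.57. CXCR1, CXCR2, CCR2, IL1R2, TNFRSF1A and TNFRSF1B had none. CXCR1 and CXCR2 are the receptors of CXCL8 on neutrophils, and CCR2 is the receptor of CCL2 on monocytes. These 3 genes held 7, 10 and 8 CpG, in the group where 2.10% of genes had a promoter peak, so its absence was the usual state there. IL1R2 held 12 CpG and TNFRSF1A 22, in groups with 6.50% and 21.0%. TNFRSF1B held 87, in the group with 76.4%, so its lack of a peak was not the usual state.

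The ligand lists were mostly poor in CpG. Each is read here beside the median share of genes with a promoter peak in the CpG groups of its members. Where a list mixes CpG-poor and CpG-rich genes, that median is not the share to be expected of it. Of 9 chemokine genes of the chromosome 4 cluster 4 had a promoter peak in both, or 44.4%, and 2 in a single replicate. Their CpG groups had a median share of 21.0% but ran from 2.10% to 73.6%. CXCL1, CXCL2 and CXCL3 fell in groups with 68.2% and 73.6%, where a peak was the common state, and CXCL8 in the group with 2.10%. No excess over the CpG groups is read from this count. Of 9 genes of the IL1 family cluster 0 had one in either replicate, beside 2.10%. Of 6 CCL genes on chromosome 17 only CCL2 had one, which is 16.7%, beside 4.30%. Of 15 other cytokines of airway epithelium 3 were open in both (IL11, IL18 and CXCL3) and 2 in a single replicate (CXCL5 and CXCL6), which leaves 10 with none, TNF, CSF2, IL33 and TSLP among them. The share open in both was 20%. The CpG groups of the 15 genes had a median share of 6.50% but ran from 2.10% to 73.6%. IL11 and CXCL3 fell in groups with 56.1% and 73.6%, and IL18 in the group with 6.50%. No excess over the CpG groups is read from this count. IL11 measured 6.06 and 6.22 and IL18 4.85 and 7.70. Taken over the 90 genes of these lists, which leave out IL6, 50 had a promoter peak in both replicates, or 55.6%, near the share of all genes.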

How the data were processed

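ATAC-seq was read from 2 biological replicates of untreated BEAS-2B cells, grouped by their labels. Per the labels and the study's methods, the authors mapped reads to hg38 with Bowtie2 2.4.4, removed duplicates with custom code, used SAMtools 1.13 and called peaks per replicate with MACS2 2.2.7.1, keeping all remaining reads. Tn5 shift, mapping quality filter, mitochondrial reads and q limit are not given in the sources used here. The deposited lists give a fold enrichment (a linear ratio), a −log10 p and a −log10 q per peak. The deposited score is 10 times the −log10 q and was left out.

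The analysis kept the peaks of the autosomes (1 to 22) and of X and Y, and none ran past its chromosome in the hg38 reference. Pileups were solved from fold enrichment and −log10 p, within 0.01, for 99.8% and 99.9% of peaks; the files give no read totals. Peaks overlapping by at least 1 bp were merged, and a region with a peak of each replicate was called shared. Promoters were 1 kb to either side of the canonical TSS (GENCODE 44), and motifs were searched on both strands within 100 bp of summits and from 250 bp before to 50 bp after the TSS. With 1 condition there was no test; shares are set beside those of all genes or regions. Overlap, pileup and motif steps were tested on simulated data. Alternatives were a minimum of 5 for the −log10 q, the same number of top peaks from each list, each replicate alone, an overlap of 50%, windows of 10 and 100 kb, promoters of 500 bp and 3 kb, any TSS, and other motif windows and spellings. The genes, lists and rules were chosen with earlier results of these data known. Named were the 10 genes, their promoter regions, the 3 strongest shared regions of each locus, shared regions with an NF-kB motif, neighbouring cluster genes and the exceptions of each list; the other regions and genes named were chosen after their values were seen. Python 3.11.15 was used with numpy 2.4.6, pandas 2.3.3, scipy 1.17.1, matplotlib 3.10.9 and Biopython 1.88.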

Additional observations from a re-analysis of the deposited data

How the results depend on the processing

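For 8 results 61 values were computed under the alternatives. Of these, 56 stayed within 1.5 times the reported count, or within 1 SD for the fold enrichment, and 5 moved further. The results were counts and a median, which have no direction that could reverse. With a minimal overlap of 50% of each peak, and with motifs within 50 bp of the summit, 0 distal regions held the NF-kB motif in place of 1. With windows of 10 kb, 6 distal regions remained in place of 13, with AP-1 in 2 in place of 5, since the windows were shorter. From either replicate alone, 3 to 5 distal regions held C/EBP, 5 to 6 AP-1 and 1 to 1 NF-kB, 28 to 36 regions and 14 to 17 distal regions were found, the median fold enrichment was 5.37 to 6.004, and 50 to 53 of the 90 pathway genes and 8 of the 10 genes had a promoter peak. No paired analysis was possible because there was 1 condition. The smallest pileups in the lists, 16 and 13, limit what an absent peak can show, and 2 replicates of 1 line limit the precision of every SD.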
